A study of Mus musculus with 12 samples.

Results

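The genes of the apoptosis machinery and the BCL2 family were followed in MC38 tumors from mice given a plant fraction, an anti-PD-1 antibody, both or neither. The set holds 33 genes that were chosen by symbol, 8 pro-survival and 25 pro-death, out of 23282 lines of the count table. All 33 had enough counts to be tested, among 13464 genes tested in all and 19137 with a count in at least 1 tumor. Apoptosis is reached by 2 routes. In the extrinsic route, death receptors at the cell surface gather adaptor proteins and switch on caspase-8. In the intrinsic route, BH3-only proteins neutralize the anti-apoptotic BCL2 proteins, the pore formers BAX and BAK open the outer mitochondrial membrane, and released cytochrome c lets APAF1 activate caspase-9. Inhibitor of apoptosis proteins and the caspase-8 inhibitor c-FLIP, encoded by Cflar, hold the caspases back, and cells with blocked caspase-8 can instead die by necroptosis through RIPK3 and MLKL. Cytotoxic T cells kill tumor cells partly through the Fas receptor.

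MC38 is a mouse colon carcinoma line, and here it was implanted subcutaneously in the right flank of wild-type female C57BL/6 mice, 6 weeks old, rather than in the colon. The 4 groups had 3 tumors each. SFIH mice received 50 mg/kg a day of the sesquiterpene lactone-rich hexane fraction of Inula helenium root by intraperitoneal injection, PD mice received 200 μg of anti-PD-1 antibody per injection, Comb mice received both, and Con mice received saline with DMSO and Tween 80 and an IgG2a isotype antibody. The study's description of its groups pairs SFIH alone with the isotype antibody as well, while whether PD mice received the DMSO and Tween 80 vehicle is not given in the sources used here. All tumors were taken at day 19, and each gave 1 library, so that p-values measure the spread between tumors numbered 1 to 3 in a group. The labels call the material tumor cells, but RNA came from whole tumor tissue. The epithelial genes Krt8, Krt18, Krt19, Epcam and Cdh1 together reached 86.8 CPM (counts scaled to library size) in Comb replicate 3 and 2.46 to 20.6 CPM in the other 11 tumors. The sum of 8 macrophage genes was 570 to 10900 CPM. The epithelial markers that would define carcinoma cells were thus nearly absent in those 11 tumors. In such bulk tissue, fewer cells of a type and less RNA per cell cannot be told apart.

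Gene counts summed to 7870741 in the shallowest and 12261032 in the deepest library (median 9932321). Levels below are CPM scaled by TMM, a factor that evens out differences in library composition. The libraries were made from the 3′ ends of transcripts, whose reads do not scale with gene length, so levels of different genes were compared without a length correction. Comb replicate 3 stood apart from the other 11 tumors before any comparison was made. Its proliferation genes summed to 100 CPM against 1560 to 2490 CPM in the others, with all 6 of 6 listed genes below the range of the others and Bub1 at 0. Its skeletal muscle genes (8 of 8 above the range) summed to 4670 CPM against 10.3 to 622 CPM, its macrophage genes (7 of 8 above) to 10900 CPM against 570 to 3420 CPM, and its skin genes (6 of 6 above) to 338 CPM against 2.83 to 29.3 CPM. T cell genes (5 of 7 above) summed to 222 CPM against 22.4 to 100 CPM. Among the other 11 tumors, Comb replicate 2 had the highest sums of macrophage (3420 CPM), fibroblast (10300 CPM), T cell (100 CPM), neutrophil (98.2 CPM), B and plasma cell (81.6 CPM), endothelial (126 CPM) and adipocyte genes (389 CPM) and the lowest of proliferation genes (1560 CPM), and Comb replicate 1 had the highest of muscle genes (622 CPM). The part of these markers in the results was not tested. Fold changes and counts that use Comb replicate 3 are given with and without it, and the values without it rest on Comb replicates 1 and 2.

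The members covered a wide span of expression. Mcl1, an anti-apoptotic BCL2 protein with a short life, was the most abundant with a median of 263 CPM over the 12 tumors, higher than 95.6% of the genes tested. Cycs, which encodes cytochrome c, followed at 185 CPM, and Xiap, a direct caspase inhibitor, at 88.3 CPM. Bad, Tnfrsf1a and Bak1 lay between 77.2 and 85 CPM, a difference smaller than their spread over the tumors. At the low end were Fas at 4.64 CPM, and the BH3-only genes Bmf at 2.91, Pmaip1 at 1.49 and Bik at 0.743 CPM. Bik had only 0 to 23 counts per tumor, with 0 in Con replicate 2 and 20 and 23 in Comb replicates 2 and 3. Of the anti-apoptotic BCL2 genes, the order was Mcl1, Bcl2l1 at 33.5 CPM, Bcl2 at 19.7 CPM and Bcl2l2 at 6.91 CPM, and the lowest Mcl1 value (210 CPM) was above the highest Bcl2l1 value (37.9 CPM). Of the pore formers, Bak1 at 77.2 CPM was more abundant than Bax at 12.6 CPM in every tumor.

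**Figure D1:**
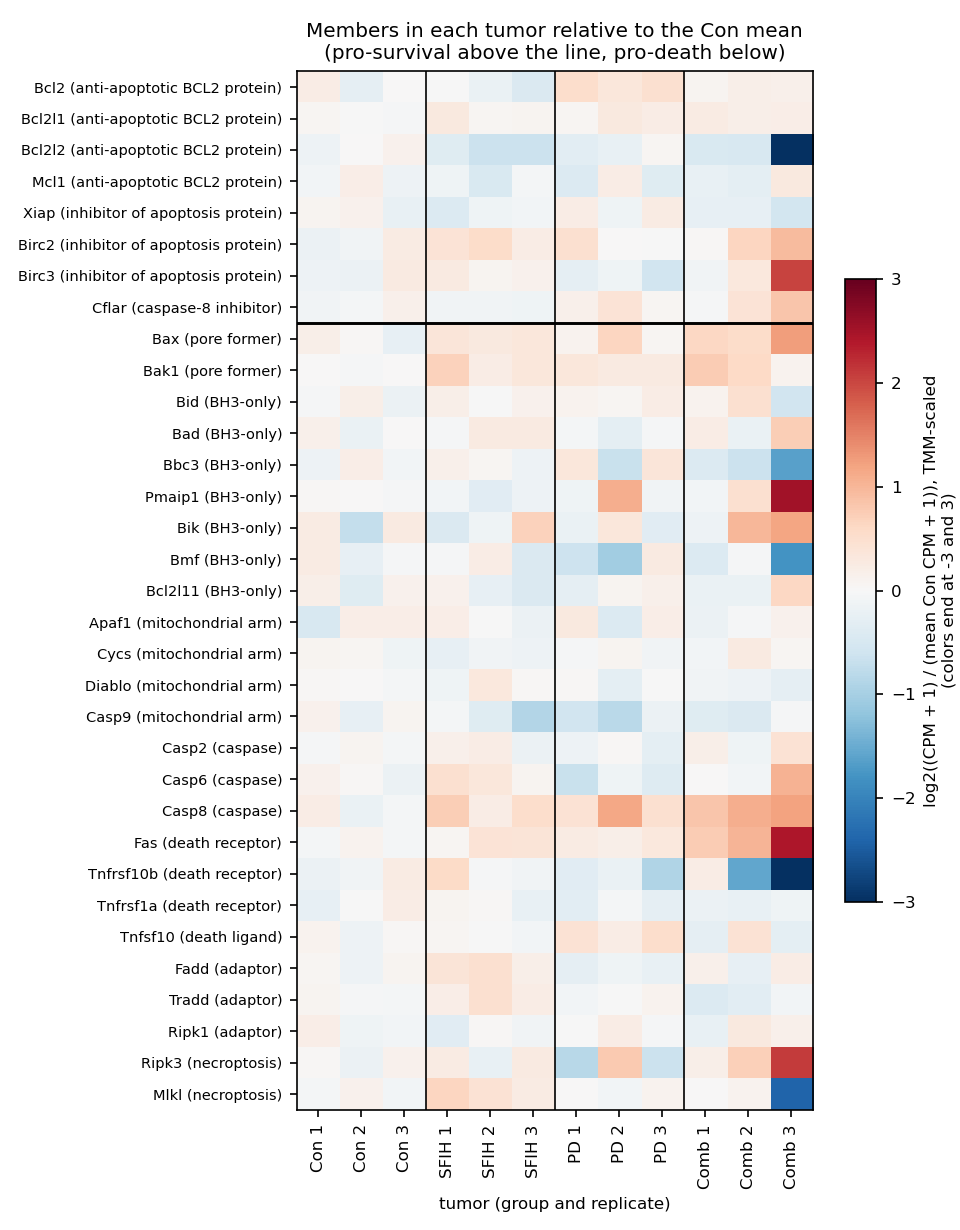
Each of the 33 members (rows) in each of the 12 tumors (columns), as log2 of the ratio of CPM + 1 to the mean Con CPM + 1, with red for higher and blue for lower and a color scale that ends at a difference of 3 in either direction. Most members stay pale in 11 tumors, and Comb replicate 3 holds most of the dark cells. Casp8 and Bak1 are above every Con tumor in all treated tumors (Bak1 not without TMM). Some of these cells are pale, with Bak1 at 0.095 in Comb replicate 3 and Casp8 at 0.232 in SFIH replicate 2.

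Among the death receptors, Fas was the member that set the Comb tumors apart. Fas was at 3.51, 4.01 and 3.48 CPM in Con, at 3.86, 5.20 and 5.11 CPM in SFIH, at 4.49, 4.23 and 4.80 CPM in PD, and at 6.90, 8.40 and 24.1 CPM in Comb. All 3 Comb tumors were above all other 9 tumors, a pattern that 1.12% of the genes tested shared and no other member did. The raw counts behind these values were 31 to 73 in 11 tumors and 200 in Comb replicate 3. The log2 fold change of Comb against Con was 1.83 ± 0.44 (SE), with an edgeR p of 0.00153 and an adjusted p of 0.0665, and 1.06 without Comb replicate 3. Tnfrsf10b, which encodes the mouse receptor for the death ligand TRAIL, went the other way in part of the anti-PD-1 tumors. It was at 38.2, 40.2 and 51.6 CPM in Con, 64.9, 42.2 and 40.2 CPM in SFIH, 34.2, 37.4 and 22.9 CPM in PD and 50.7, 14 and 2.65 CPM in Comb. The PD tumors all lay below the Con tumors, while the Comb tumors ran from within the SFIH range to the lowest value of all. Tnfrsf1a, the main TNF receptor on most cells, stayed between 72.3 and 104 CPM in all 12 tumors, with overlapping groups.

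The TRAIL gene Tnfsf10 was at 10.9, 8.93 and 10.3 CPM in Con and at 13.8, 11.9 and 14.8 CPM in PD. The PD tumors did not overlap with the Con tumors, though they did without TMM, and the Comb tumors at 8.16, 13.8 and 8.06 CPM and the SFIH tumors at 10.5, 10.0 and 9.38 CPM did. Tradd, the adaptor of TNF receptor 1, was at 27.5, 25.2 and 24.5 CPM in Con, 29.9, 36.0 and 30.3 CPM in SFIH, 24.1, 25.4 and 27.8 CPM in PD and 19.2, 20.6 and 24.2 CPM in Comb. It was the only member that was above Con in every SFIH tumor and below Con in every Comb tumor, a joint pattern that 0.163% of the genes tested had. With TMM, Comb replicate 3 at 24.2 CPM was just below Con replicate 3 at 24.5 CPM. The pattern was described after the values were seen, so its share is not a test of Tradd. Fadd, which links death receptors to caspase-8, was at 10.7, 9.23 and 11 CPM in Con and 13.8, 14.9 and 11.8 CPM in SFIH, without overlap except when TMM was left out. Its values of 8.44, 9.27 and 8.70 CPM in PD and 11.5, 8.52 and 12.3 CPM in Comb overlapped with Con. Ripk1, a kinase that serves both survival and death signals of TNF, ranged from 26.4 to 41.6 CPM with overlapping groups.

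Casp8, the initiator caspase of the extrinsic route, was higher than Con in all 9 treated tumors. Con tumors had 50.3, 37.8 and 41.7 CPM, SFIH tumors 72.7, 51.0 and 62.5 CPM, PD tumors 58.7, 98.6 and 61.1 CPM, and Comb tumors 77.8, 93.2 and 102 CPM. The group means were 43.3 ± 6.37, 62.1 ± 10.9, 72.8 ± 22.4 and 91.2 ± 12.5 CPM (SD, n = 3). Comb did not overlap with SFIH, though it did without TMM, and it overlapped with PD, whose replicate 2 was at the level of Comb. Only Casp8 and Bak1 among the members were above Con in all 9 treated tumors, as were 0.973% of the genes tested. For Casp8 this also held without TMM, and for Bak1 it did not. Cflar, whose product competes with caspase-8 at the receptor, was at 44.1, 45.7 and 53.6 CPM in Con, 44.2, 44.0 and 43.8 CPM in SFIH, 53.1, 64.1 and 49.8 CPM in PD and 47.0, 63.8 and 85.4 CPM in Comb. SFIH tumors were near the lowest Con tumor and, with TMM but not without it, below all Comb tumors, and Con, PD and Comb overlapped.

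**Figure D2:**
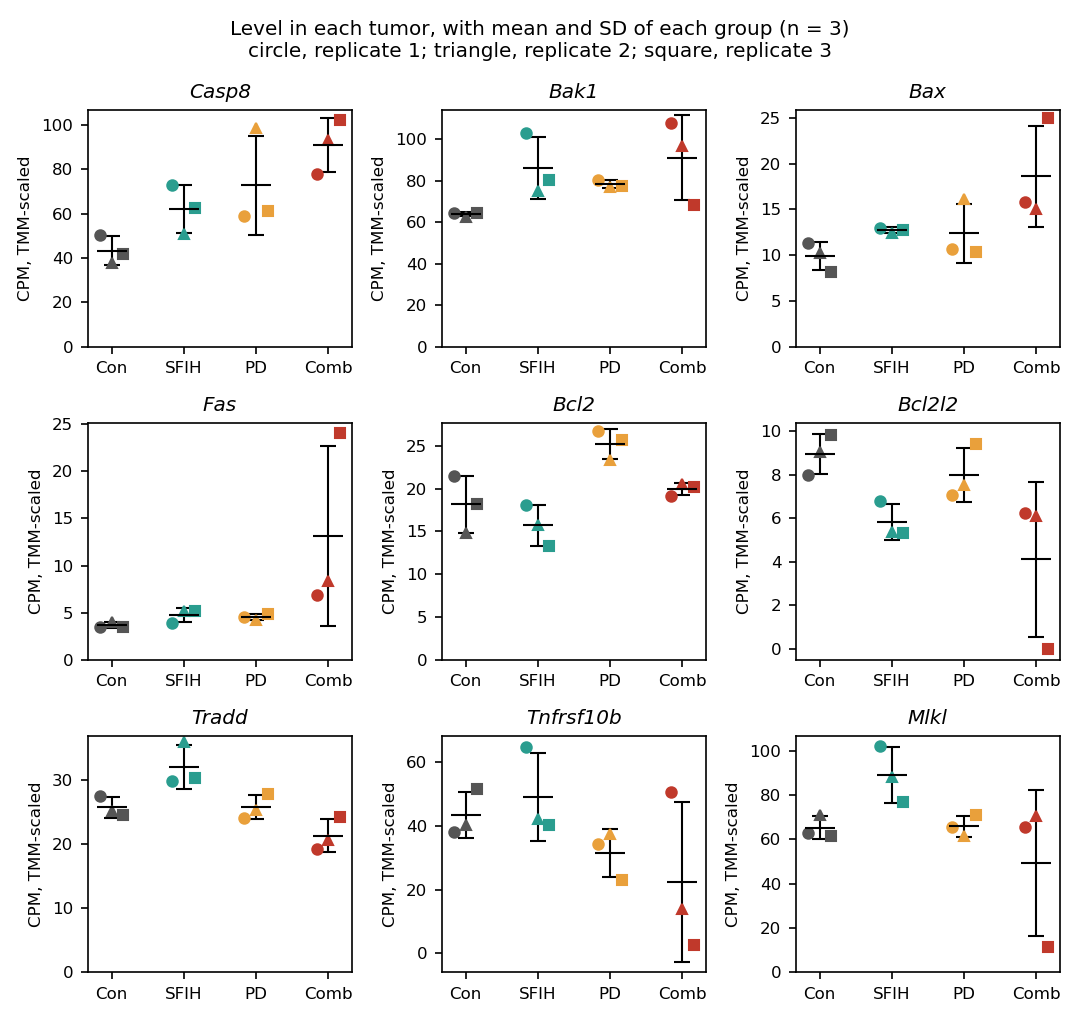
TMM-scaled CPM of 9 members in each tumor on linear axes, with horizontal bars for group means and error bars for the SD (n = 3 tumors). The 9 treated tumors sit above the 3 Con tumors for Casp8 and Bak1 (for Bak1 not without TMM), the 3 Comb tumors sit above the rest for Fas, and Comb replicate 3 (red square) is far from its group for Fas, Bax, Bcl2l2 and Mlkl.

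The pore formers were higher in treated tumors, Bak1 in all of them and Bax in SFIH and Comb. Bak1 was at 64.4, 62.6 and 64.4 CPM in Con, 103, 75.2 and 80.4 CPM in SFIH, 80.4, 77.0 and 77.3 CPM in PD and 108, 96.8 and 68.2 CPM in Comb. The 3 Con tumors nearly coincided, and the lowest treated value belonged to Comb replicate 3. Bax was at 11.3, 10.2 and 8.21 CPM in Con, 13.0, 12.4 and 12.8 CPM in SFIH, 10.7, 16.1 and 10.4 CPM in PD and 15.8, 15.1 and 25.0 CPM in Comb. The SFIH and Comb tumors were all above Con, while PD overlapped with Con. Bak1 overlaps the protein-coding gene Ggnbp1 in the annotation, and whether the counting used the strand is not given in the sources used here, so part of its counts may belong to that neighbour.

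The 250 bases upstream of the annotated start (GRCm38.p6, RefSeq) are shown for Casp8, Bak1, Fas and Bax, the 4 members with the lowest p in Comb against Con, all of them higher. They lie at chr1:58802252-58802501 on the plus strand, chr17:27028628-27028877 on the minus strand, chr19:34290409-34290658 on the plus strand and chr7:45466899-45467148 on the minus strand, and each is written 5′ to 3′ along its gene. Capitals mark matches to the interferon-gamma type element TTCNNNGAA (GAS) or to the interferon-stimulated response element (ISRE) type letters, GAAA and GAAA with 2 bases of any kind between them, on either strand.
Casp8: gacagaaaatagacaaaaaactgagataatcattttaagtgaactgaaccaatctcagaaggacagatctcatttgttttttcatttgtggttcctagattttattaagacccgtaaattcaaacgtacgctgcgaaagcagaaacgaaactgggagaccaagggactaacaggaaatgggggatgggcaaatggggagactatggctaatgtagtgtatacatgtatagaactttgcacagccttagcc
Bak1: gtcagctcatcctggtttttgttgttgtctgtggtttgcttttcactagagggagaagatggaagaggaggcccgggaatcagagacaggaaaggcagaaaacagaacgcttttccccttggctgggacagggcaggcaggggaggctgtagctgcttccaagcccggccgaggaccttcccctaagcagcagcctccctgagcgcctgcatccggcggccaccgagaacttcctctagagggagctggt
Fas: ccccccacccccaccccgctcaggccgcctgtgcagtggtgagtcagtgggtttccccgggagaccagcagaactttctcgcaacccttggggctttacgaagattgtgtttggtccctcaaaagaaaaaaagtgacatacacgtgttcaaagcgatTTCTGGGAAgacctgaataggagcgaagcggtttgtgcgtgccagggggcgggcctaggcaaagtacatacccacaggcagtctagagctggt
Bax: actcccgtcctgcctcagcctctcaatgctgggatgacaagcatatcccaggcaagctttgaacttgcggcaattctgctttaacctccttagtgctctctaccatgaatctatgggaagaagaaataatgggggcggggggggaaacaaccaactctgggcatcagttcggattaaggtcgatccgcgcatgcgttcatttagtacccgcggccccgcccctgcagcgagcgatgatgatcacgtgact

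Of these 4 windows, Fas alone held a match, TTCTGGGAA, which begins 93 bases before the start. Windows from 250 bases before to 50 bases after the start were found for 29 of the 33 members. GAS was matched in 3 of the 29 (10.3%; Fas, Ripk1 and Tnfrsf1a) and in 9.55% of all genes with a window. The ISRE type letters were matched in 2 (6.9%; Cflar and Ripk1) and in 3.99% of all genes. The kappa-B type letters, GGG and CC with 5 bases of any kind between them, were matched in 24 (82.8%) and in 53.5% of all genes, and the AP-1 letters TGACTCA or TGAGTCA in 1 (3.45%; Fas) and in 5.95%. All 4 searches covered both strands. These matches describe letters in a window and say nothing on binding.

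The BH3-only genes had no common direction. Bbc3, which encodes PUMA, was at 18.7, 24.0 and 19.6 CPM in Con, 23.1, 21.5 and 18.7 CPM in SFIH, 26.4, 12.7 and 26.9 CPM in PD and 15.5, 13.0 and 6.02 CPM in Comb. Each Comb tumor was below all Con and SFIH tumors, while PD replicate 2 fell within the Comb range. Pmaip1, which encodes NOXA, was at 1.67, 1.61 and 1.52 CPM in Con, 1.46, 1.04 and 1.35 CPM in SFIH, 1.39, 4.5 and 1.4 CPM in PD and 1.46, 2.65 and 14 CPM in Comb. Its mean in Comb rested on Comb replicate 3, which had 116 counts against 13 to 33 in the other 11 tumors. Bid, whose product carries the signal of caspase-8 to mitochondria, ranged from 38.3 to 60.8 CPM in those 11 tumors, and Bad from 70.1 to 104 CPM. Bcl2l11, which encodes BIM, ranged from 26.3 to 40.7 CPM there and Bmf from 1.09 to 4.20 CPM.

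Of the anti-apoptotic BCL2 genes, Bcl2 was highest in PD and Bcl2l2 lowest in the tumors given SFIH. Bcl2 was at 21.5, 14.8 and 18.2 CPM in Con, 18.1, 15.7 and 13.3 CPM in SFIH, 26.7, 23.3 and 25.7 CPM in PD and 19.2, 20.6 and 20.2 CPM in Comb. The 3 PD tumors were above all other 9, as for 0.706% of the genes tested, but PD replicate 2 was below Con replicate 1 without TMM, and Comb lay inside the Con range. Bcl2l2, which encodes BCL-w, was at 7.98, 9.03 and 9.82 CPM in Con, 6.77, 5.35 and 5.32 CPM in SFIH, 7.05, 7.5 and 9.4 CPM in PD and 6.22, 6.10 and 0 CPM in Comb. All 6 tumors given SFIH were below the 6 others, as for 1.75% of the genes tested, but the sides overlapped without TMM. Bcl2l1, which encodes BCL-XL, was the steadiest member with TMM, at 29.8 to 37.9 CPM in all 12 tumors. Without TMM it ran from 26.6 to 42.1 CPM, a wider span in ratio than that of Cycs, from 153 to 212 CPM. Mcl1 ranged from 210 to 338 CPM in 11 tumors and was at 357 CPM in Comb replicate 3.

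Among the inhibitor of apoptosis genes, Xiap was at 101, 105 and 82.3 CPM in Con, 72.0, 88.5 and 91.4 CPM in SFIH, 113, 88.1 and 114 CPM in PD and 80.9, 80.5 and 65.4 CPM in Comb. The Comb tumors were below all Con and PD tumors, and without TMM they overlapped with PD. Birc2 and Birc3 encode cIAP1 and cIAP2, ubiquitin ligases of TNF receptor signaling. Birc2 was at 23.2, 24.3 and 31.1 CPM in Con, 35.2, 39.1 and 30.9 CPM in SFIH, 37.0, 26.5 and 25.9 CPM in PD and 26.9, 41.8 and 51.6 CPM in Comb. Birc3 was at 11.8, 11.6 and 16.2 CPM in Con, 16.2, 14.1 and 14.5 CPM in SFIH, 10.7, 11.9 and 8.60 CPM in PD and 12.1, 16.8 and 56.8 CPM in Comb. The Comb tumors were above PD, the lowest of them by a narrow margin, and Comb replicate 3 was far above all others.

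In the mitochondrial arm, Casp9 was at 21.8, 16.4 and 20.9 CPM in Con and 12.8, 10.8 and 17.4 CPM in PD, and overlapped there. It was at 19.0, 15.2 and 10.2 CPM in SFIH and 15.2, 14.3 and 19.2 CPM in Comb, also with overlap. Apaf1 ranged from 11.4 to 20.3 CPM, Cycs from 163 to 232 CPM and Diablo, an antagonist of XIAP, from 33.5 to 51.7 CPM over all 12 tumors. Casp6, an executioner caspase, was at 39.0, 36.9 and 31.6 CPM in Con, 50.2, 45.5 and 37.8 CPM in SFIH, 22.1, 32.7 and 27.4 CPM in PD and 36.1, 33.7 and 74.7 CPM in Comb. PD was below Comb without overlap, which was lost without TMM, and Comb replicate 3 was the highest. Casp2 ranged from 12.2 to 17.6 CPM in 11 tumors and was at 20.7 CPM in Comb replicate 3.

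The necroptosis genes differed in their patterns. Mlkl, which encodes the pore-forming executioner, was at 62.9, 71.1 and 61.6 CPM in Con, 102, 88.3 and 76.9 CPM in SFIH, 65.6, 61.4 and 70.8 CPM in PD and 65.7, 70.6 and 11.5 CPM in Comb. The SFIH tumors were above all other tumors, with and without TMM, as they were for Tradd and for 1.06% of the genes tested. Ripk3, the kinase that activates MLKL, was at 7.63, 6.42 and 8.12 CPM in Con, 9.02, 6.17 and 9.17 CPM in SFIH, 3.74, 13.4 and 4.40 CPM in PD and 8.45, 12.8 and 34.8 CPM in Comb. Comb replicate 3 had the lowest Mlkl and the highest Ripk3 of the 12 tumors.

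SFIH alone was compared with Con to ask what the plant fraction does without the antibody. Bax, Bak1, Casp8, Fadd, Tradd and Mlkl were higher in all 3 SFIH tumors than in all 3 Con tumors, and Bcl2l2 and Pmaip1 were lower. These were 6 members of 33 in the higher direction, where 8.55% of the genes tested did the same, and 2 in the lower direction, where 8.86% did. No member passed the adjusted threshold of 0.05 with edgeR, nor did any gene (0%). At an unadjusted p under 0.05 there was 1 higher member, Bak1, and none lower, against 1.2% and 1.05% of all genes. DESeq2 and limma-voom called 0 members, where they called 0.0105% and 0% of all genes. The log2 fold changes were 0.52 ± 0.24 for Casp8, 0.43 ± 0.19 for Bak1, 0.42 ± 0.26 for Birc2, 0.39 ± 0.22 for Fadd and 0.32 ± 0.17 for Tradd (SE), each with an edgeR adjusted p of 1. This comparison takes no level from Comb replicate 3, but its error does: without that tumor, 4 members were higher and 1 lower at an unadjusted p under 0.05, against 3.48% and 4.01% of all genes, and DESeq2 and limma-voom called 0 members (0.304% and 0.022% of genes). SFIH replicate 1 was the highest SFIH tumor for Casp8, Bak1, Bax and Mlkl, and SFIH replicate 2 for Fadd and Tradd. In SFIH replicate 1, skin genes summed to 29.3 CPM against 4.54 and 2.86 in the other SFIH tumors, and NK cell genes to 87.3 against 40.9 and 33.4. Fibroblast genes were at 1140 CPM there against 2610 and 3480, and proliferation genes at 1840 against 2400 and 2360. The part of these markers in the result was not tested.

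Anti-PD-1 alone was compared with Con for the antibody without the plant fraction. Casp8 had the largest fold change of the members named here, and Bcl2, Bcl2l1, Bak1, Fas and Tnfsf10 were also higher in all 3 PD tumors than in all 3 Con tumors, while Tnfrsf10b was lower. Those are 6 members higher and 1 lower without overlap, where 9.42% and 9.36% of the genes tested did the same. Without TMM the counts turned to 1 higher and 7 lower (5.76% and 14.8% of genes), with Casp8 the one still higher. No member passed the adjusted threshold with edgeR (0% of all genes), DESeq2 (0.0105%) or limma-voom (0.616%). At an unadjusted p under 0.05, 2 were higher and none lower, against 2.31% and 1.68% of all genes. In fits that left out Comb replicate 3 the counts were 3 and 1 (6.14% and 4.59% of genes), and DESeq2 and limma-voom again called 0 (0.398% and 0.0881%). The log2 fold changes were 0.75 ± 0.24 for Casp8 with an edgeR p of 0.00904 and 0.48 ± 0.20 for Bcl2 with a p of 0.0354. They were 0.43 ± 0.26 for Tnfsf10, 0.29 ± 0.19 for Bak1 and −0.52 ± 0.28 for Casp9, and the adjusted p of all 5 was 1. Over the alternatives Casp8 ran from 0.471 to 0.878 and Bcl2 from 0.334 to 0.606, so their ranges overlapped. Casp8 was at 98.6 CPM in PD replicate 2 and at 58.7 and 61.1 CPM in the other PD tumors. PD replicate 2 was the highest PD tumor for Casp8, Bax, Ripk3 and Pmaip1, and it also had the most macrophage RNA of the group, at 1780 CPM against 963 and 1320 CPM. The same tumor was highest of the group for T cell genes (91.2 CPM against 36 and 49.3), neutrophil genes (79.2 against 16.7 and 18.1) and erythroid genes (1430 against 65.6 and 253), while fibroblast genes were above Con in all 3 PD tumors (4150, 6330 and 5860 CPM against 2240, 2570 and 2960 CPM). The part of these in the result was not tested.

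Comb against Con asks what both agents do together. Casp8 was 2.11-fold, Fas 3.56-fold, Bax 1.88-fold and Bak1 1.43-fold higher than Con, and all 4 were without overlap, as were Bcl2l1 and Ripk3. Bcl2l2, Xiap, Bbc3, Diablo and Tradd were lower without overlap. These 6 members higher and 5 lower stand beside 11.7% and 13% of the genes tested, and without TMM the counts were 3 and 7 (7.6% and 22.2% of genes), with Bcl2l1, Bak1 and Ripk3 no longer separated. Leaving out Comb replicate 3, they were 6 and 7, beside 16.2% and 16.7%. With edgeR, 0 members and 0% of genes passed the adjusted threshold, while 8 members were higher and 1 lower at an unadjusted p under 0.05, against 18% and 7.3% of all genes. The members' share was thus near that of all genes. The fit of the other 11 tumors gave 4 and 1, against 11.4% and 7.43%.

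For single members in Comb against Con, the log2 fold change was 1.08 ± 0.24 for Casp8, with an edgeR p of 0.000869 and an adjusted p of 0.0665. It was 0.98 without Comb replicate 3, and over all alternatives the adjusted p ran from 0.00119 to 0.334. For Bax it was 0.91 ± 0.27 (edgeR adjusted p = 0.0796), and 0.64 without Comb replicate 3. Bak1 stood at 0.51 ± 0.19 (edgeR adjusted p = 0.135), and at 0.68 without that tumor. Pmaip1 stood at 1.90 ± 0.78 (edgeR adjusted p = 0.161), and at 0.35 without it, so that its value rested on 1 tumor. DESeq2 called Casp8, Fas and Bax, where it called 13.3% of all genes, and limma-voom with sample weights called Casp8, Fas, Bax and Bak1 higher and Tnfrsf10b lower, where it called 20.2%. In fits without Comb replicate 3, DESeq2 called Casp8, Fas and Bak1, with 4.88% of all genes, and limma-voom called 0 members, with 0.0147%. Scaling mattered here, since without TMM the median of all genes moved from −0.03 to −0.29, and the fold changes of Casp8, Fas, Bax and Bak1 stayed above 0 at 0.79, 1.48, 0.62 and 0.28.

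**Figure D3:**
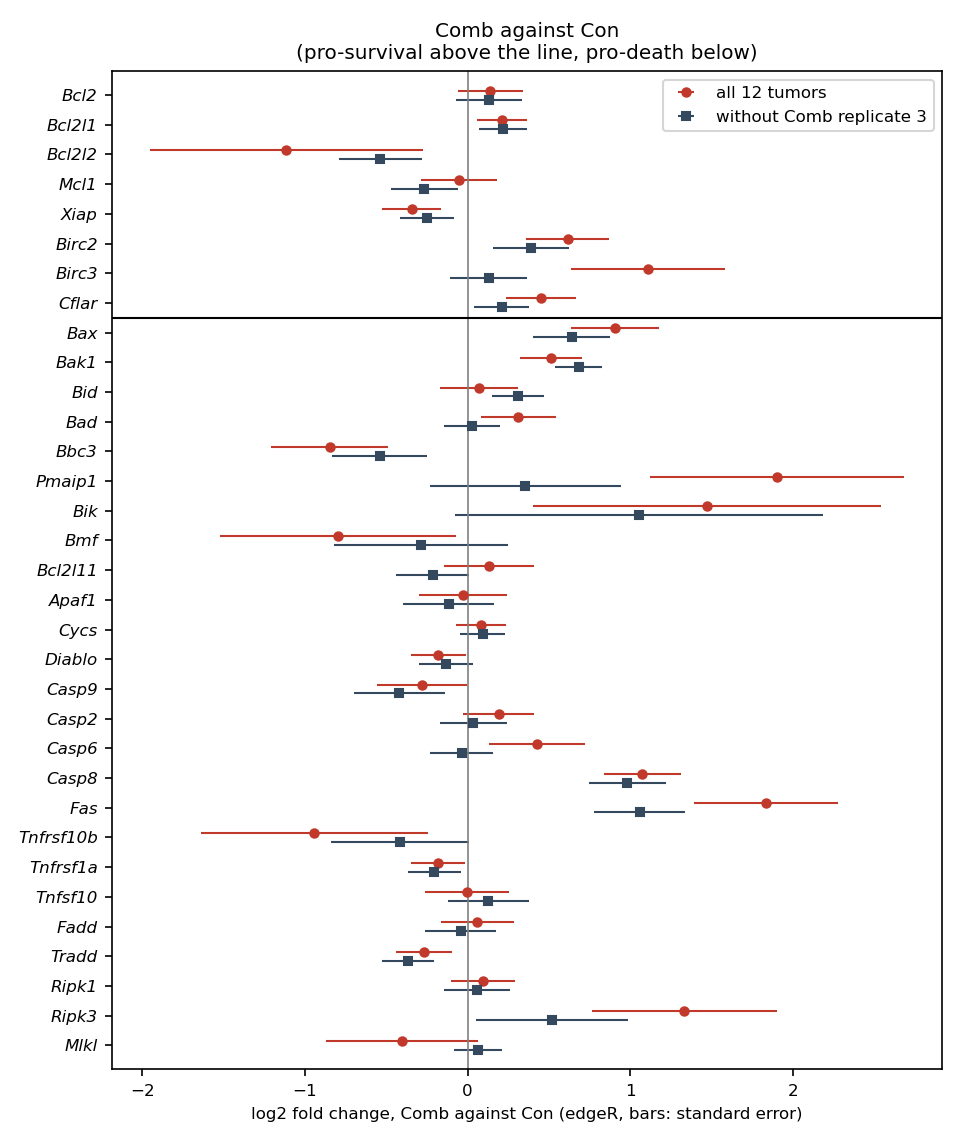
Log2 fold change of Comb against Con for each member from edgeR, with bars for the standard error, from all 12 tumors (red circles) and without Comb replicate 3 (dark squares). Casp8 moves little between the fits (1.08 and 0.98), while Fas goes from 1.83 to 1.06, Pmaip1 from 1.90 to 0.35 and Birc3 from 1.11 to 0.13.

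Comb was also set against each single treatment. Against PD, Fas, Birc3 and Casp6 were higher and Bcl2, Bcl2l2 and Xiap lower without overlap, 3 members each way, where 6.16% and 8.1% of the genes tested did the same. When Comb replicate 3 was left out there were 4 each way, beside 9.44% and 10.6%. Fas had a log2 fold change of 1.54 ± 0.44 (edgeR adjusted p = 0.243), and 0.76 without Comb replicate 3. The fold changes were 1.46 ± 0.48 for Birc3, 0.81 ± 0.30 for Casp6, −0.47 ± 0.18 for Xiap and −0.93 ± 0.36 for Bbc3. They were 0.48, 0.35, −0.38 and −0.63 without that tumor. No member passed the adjusted threshold with edgeR (0% of genes), and 4 higher and 2 lower members had an unadjusted p under 0.05, against 12.9% and 5.11% of all genes. In the fit without Comb replicate 3 those were 2 and 2, against 4.11% and 4.9%. DESeq2 called Fas (2.68% of all genes) and limma-voom called Ripk3 (7.98%), and neither called a member once that tumor was left out (0.129% and 0% of genes).

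Against SFIH, the Comb tumors were higher without overlap in Bcl2, Cflar, Bax, Pmaip1, Cycs, Casp8 and Fas and lower in Bbc3, Tradd and Mlkl. Those 7 and 3 members stand beside 7.65% and 8.56% of the genes tested, and without TMM the counts were 1 and 4 (4.65% and 14.9% of genes), while leaving out Comb replicate 3 gave 7 and 5 (10.7% and 12%). Tradd had the lowest p, with a log2 fold change of −0.59 ± 0.17 (edgeR adjusted p = 0.129), and −0.69 without Comb replicate 3. Fas followed at 1.47 ± 0.43 (edgeR adjusted p = 0.131), and 0.70 without that tumor. Pmaip1 stood at 2.22 ± 0.79, Cflar at 0.57 ± 0.22 and Bbc3 at −0.87 ± 0.36, and without it at 0.67, 0.33 and −0.56. With edgeR 0 members and 0% of genes passed the adjusted threshold, and 4 higher and 2 lower members had an unadjusted p under 0.05, against 14.8% and 4.22% of all genes. Those became 1 and 2 without Comb replicate 3, against 7.16% and 3.63%. DESeq2 called Fas and Tradd (7.78% of all genes), limma-voom called Cflar, Casp8 and Fas higher and Tnfrsf10b and Tradd lower (15%), and neither called any without Comb replicate 3 (0.687% and 0% of genes). The 5 comparisons of 2 groups share their Con, PD, SFIH or Comb tumors, so they are not independent of each other.

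The interaction asks whether SFIH acted differently with the antibody than without it. No member passed the adjusted threshold with edgeR (0% of genes), DESeq2 (0.00526%) or limma-voom (0%). At an unadjusted p under 0.05 there was 1 member, Tradd, in the lower direction and none in the higher, against 0.557% and 2% of all genes. The same counts were found without Comb replicate 3, against 0.837% and 0.712%, with 0 members and 0% of genes for DESeq2 and limma-voom. Its interaction was −0.59 ± 0.24 on the log2 scale (edgeR adjusted p = 0.894), and −0.69 without Comb replicate 3. The next values were 1.28 ± 0.67 for Birc3, 1.18 ± 0.61 for Fas, −0.95 ± 0.51 for Bbc3 and 0.65 ± 0.39 for Casp9. They were 0.30, 0.40, −0.65 and 0.51 when that tumor was left out.

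With the tumors pooled as 6 given the antibody against 6 not given it, Casp8 had the lowest p. Its log2 fold change was 0.65 ± 0.17 (edgeR adjusted p = 0.098), and 0.61 without Comb replicate 3, with the adjusted p between 0.00671 and 0.246 over the alternatives. Fas stood at 0.88 ± 0.31, Bcl2 at 0.41 ± 0.14, Cflar at 0.39 ± 0.15 and Pmaip1 at 1.4 ± 0.55. These became 0.50, 0.41, 0.27 and 0.62 without it. No member separated the 6 from the 6 (1.12% of genes did so higher and 0.802% lower, or 1.35% and 1.13% when Comb replicate 3 was left out, again with no member), and with edgeR 0 passed the adjusted threshold (0% of genes). At an unadjusted p under 0.05, 6 members were higher and 1 lower, against 13.4% and 5.32% of all genes, and 5 and 3 without Comb replicate 3, against 11.6% and 7.87%. DESeq2 called Casp8 with all tumors (7.93% of all genes) and without Comb replicate 3 (6.66%), and limma-voom called 10 members, 6 higher and 4 lower (20.7%), and 0 without that tumor (0.0514%).

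Pooled as 6 given SFIH against 6 not given it, Fas had the lowest p, with a log2 fold change of 0.95 ± 0.31 (edgeR adjusted p = 0.313), and 0.56 without Comb replicate 3. Casp6 stood at 0.56 ± 0.21, Bax at 0.48 ± 0.19, Casp8 at 0.42 ± 0.17 and Xiap at −0.33 ± 0.13. These 4 became 0.33, 0.34, 0.38 and −0.29 in the fit that left it out. Bcl2l2 alone separated the 2 sides, in the lower direction, as did 1.75% of all genes there and 0.676% in the higher direction, and without TMM it overlapped. It was again the one member when Comb replicate 3 was left out (1.98% of genes lower, 1.07% higher). With edgeR 0 members passed the adjusted threshold (0% of genes), and 7 higher and 1 lower members had an unadjusted p under 0.05, against 9.11% and 5.4% of all genes, or 5 and 2 without Comb replicate 3, against 7.25% and 8.3%. DESeq2 called 0 members (1.64% of all genes) and limma-voom called Casp8, Bak1, Fas and Bax (10.6%). With Comb replicate 3 left out, DESeq2 called Bak1 (3.71%) and limma-voom 0 (0%).

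The pro-death and pro-survival classes were then set side by side. The median log2 fold change of the 25 pro-death members was 0.11 in SFIH against Con, 0.0027 in PD against Con and 0.08 in Comb against Con, and that of the 8 pro-survival members was −0.16, 0.16 and 0.18. The pro-death median was thus the higher of the 2 in SFIH against Con and the lower in the other comparisons with Con. In Comb against PD the medians were 0.13 and 0.06, and in Comb against SFIH 0.11 and 0.17. They were 0.06 and −0.06 in the interaction, 0.01 and 0.16 for the antibody pooled, and 0.02 and 0.0022 for SFIH pooled. Over all genes tested the medians of the 8 comparisons lay between −0.05 and 0.02. Leaving out Comb replicate 3 gave pro-death and pro-survival medians of 0.04 and 0.13 in Comb against Con, 0.11 and −0.06 against PD and −0.05 and 0.02 against SFIH. It gave −0.02 and −0.02 in the interaction, −0.03 and 0.06 for the antibody and 0.12 and −0.11 for SFIH pooled, and 5 of these medians changed sign without that tumor. With limma-voom on all 12 tumors the pro-death median was −0.0079 in Comb against Con, −0.0019 in Comb against SFIH and −0.017 in PD against Con. The pro-survival median was 0.042 in the interaction and −0.038 for SFIH pooled, and the other medians kept their sign.

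Ratios of a pro-death to a pro-survival gene within a tumor do not depend on the library scaling, and 2 of the 8 tests on them passed their adjusted threshold with all 12 tumors. The pairs were chosen with earlier results of these data known, and the adjustment over 8 tests does not cover that choice. How many other gene pairs separate the tumors in the same way is not given here. The ratio of Bax to Bcl2, log2 of counts + 1, took values of −0.92, −0.52 and −1.14 for the Con tumors and −1.31, −0.53 and −1.30 for the PD tumors. It took −0.47, −0.34 and −0.06 for the SFIH tumors and −0.28, −0.45 and 0.31 for the Comb tumors. All 6 tumors given SFIH were above the 6 others, by a narrow margin between SFIH replicate 1 at −0.47 and Con replicate 2 at −0.52. The permutation tests shuffled tumors without regard to the antibody. The mean was −0.21 ± 0.30 with SFIH and −0.95 ± 0.36 without (SD, n = 6), a difference of 0.74 (exact permutation test, two-sided, p = 0.00216, the smallest that 6 against 6 allows, adjusted p = 0.0173 over 8 tests). Without Comb replicate 3 the difference was 0.64, with an exact p of 0.0108 and an adjusted p of 0.0519. The call was also lost without SFIH replicate 2, where the difference was 0.76 (exact permutation, adjusted p = 0.0606). With the antibody the ratio differed by −0.02 from the tumors without it (exact permutation p = 0.963), and by −0.20 when Comb replicate 3 was left out.

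The ratio of Diablo to Xiap took values of −1.25, −1.35 and −1.05 for the Con tumors and −1.43, −1.39 and −1.48 for the PD tumors. Those of the SFIH tumors were −0.94, −0.77 and −1.11 and those of the Comb tumors −1.09, −1.12 and −0.94. Con replicate 3 lay among the tumors given SFIH and the other 5 without it were lower than all of those. The ratio rose by 0.33 with SFIH (exact permutation p = 0.00866, adjusted p = 0.0346), and leaving out Comb replicate 3 gave 0.32 (adjusted p = 0.0519). This call was lost when any one of 6 of the 12 tumors was left out, namely Con replicate 1 or 2, SFIH replicate 2, PD replicate 1 or 3 and Comb replicate 3, with adjusted exact permutation p of 0.0519 to 0.0606. The ratio of Bax to Bcl2l1 was higher by 0.39 with SFIH and that of Casp8 to Cflar also by 0.39, and neither passed the adjustment (exact permutation, adjusted p = 0.075 and 0.104). Leaving out Comb replicate 3 moved them apart, to 0.26 and 0.44. For the antibody, these 3 ratios differed by −0.17, 0.27 and 0.27, with adjusted exact permutation p of 0.23 each, and by −0.23, 0.12 and 0.30 without Comb replicate 3. Casp8 to Cflar averaged −0.15 ± 0.30 for the Con, 0.48 ± 0.25 for the SFIH, 0.35 ± 0.24 for the PD and 0.51 ± 0.23 for the Comb tumors (SD, n = 3).

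**Figure D4:**
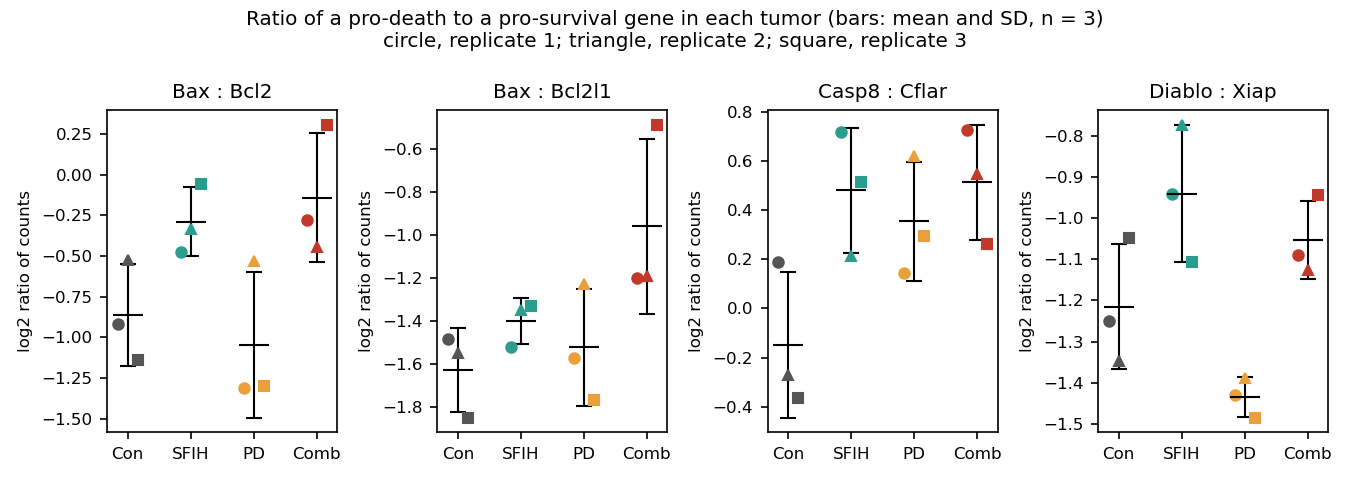
Log2 ratio of counts of a pro-death to a pro-survival gene in each tumor for 4 pairs, with means and SD (n = 3 tumors) and a separate axis range for each pair. For Bax to Bcl2, every SFIH and Comb tumor sits above every Con and PD tumor, and for Diablo to Xiap the PD tumors are lowest.

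Comb replicate 3 was outside the range of the other 11 tumors for 22 of the 33 members, 14 above and 8 below. For all genes tested the shares were 34.1% above and 38.6% below, so the members were moved about as often as other genes, and in the other tumors 2 to 6 members were outside. Above the median of the other 11 tumors were Pmaip1 by 9.58-fold, Fas by 5.36-fold, Bik by 5.32-fold, with 23 counts, Birc3 by 4.68-fold, Ripk3 by 4.28-fold, Casp6 by 2.07-fold and Bax by 2.02-fold. Below it were Tnfrsf10b by 15.2-fold, with 22 counts, Mlkl by 6.11-fold and Bbc3 by 3.26-fold. Bcl2l2 had 0 counts there, which with a floor of 3 counts per library makes it at least 19.5-fold lower than the median of the others, and Bmf had 2 counts. Casp8 was at 102 CPM, just above the 98.6 CPM of PD replicate 2, and Bak1, Bcl2 and Bcl2l1 stayed inside the range. This tumor also had the marker levels given above for muscle, skin, macrophages, T cells and proliferation. Its sums were above the highest other tumor for neutrophil (703 against 98.2 CPM), fibroblast (17200 against 10300) and NK cell genes (219 against 87.3). The same held for adipocyte (953 against 389), erythroid (1840 against 1430) and epithelial genes (86.8 against 20.6). B and plasma cell and endothelial sums stayed inside the range. The part of these markers in the values was not tested.

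**Figure D5:**
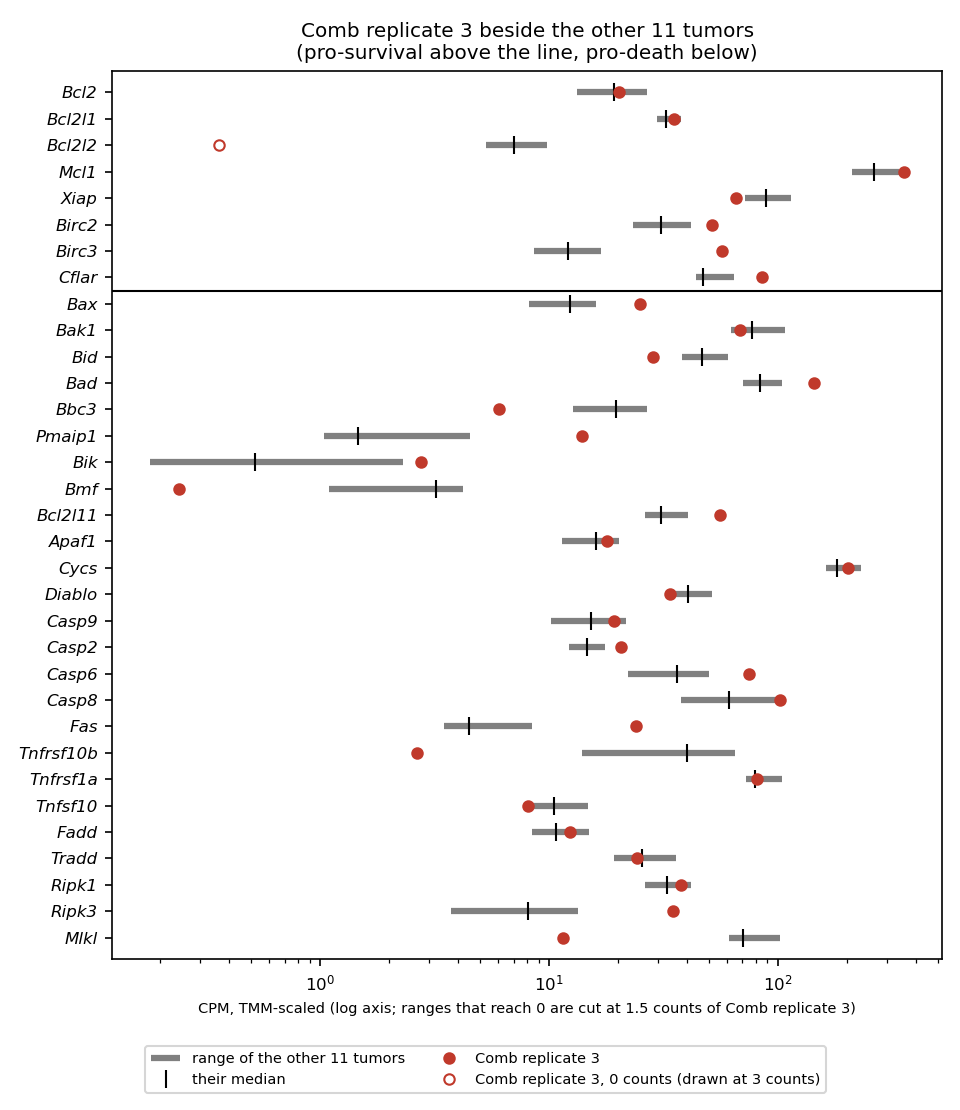
TMM-scaled CPM on a log axis of each member in Comb replicate 3 (red) beside the range (grey bar) and median (black tick) of the other 11 tumors. Of the 33 members, 14 lie above and 8 below the range, and Bcl2l2 with 0 counts is drawn as an open circle at 3 counts.

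A further list of 53 other cell death genes was compared, of which 51 were in the table and 46 were tested. With edgeR, 0 of the 46 passed the adjusted threshold in any of the 8 comparisons with all 12 tumors, and at an unadjusted p under 0.05 there were 11 higher and 3 lower in Comb against Con, where 18% and 7.3% of all genes were, and 9 and 3 without Comb replicate 3, where 11.4% and 7.43% were. Bnip3, a BH3-related gene of mitochondrial clearance that responds to low oxygen, was lowest in p in 6 of the 8. It was at 250, 310 and 214 CPM in Con, 200, 175 and 249 CPM in SFIH, 148, 173 and 161 CPM in PD and 106, 97.3 and 111 CPM in Comb. PD and Comb did not overlap with Con or with each other. The log2 fold change of Comb against Con was −1.30 ± 0.19 (edgeR adjusted p = 0.0665), and −1.35 without Comb replicate 3, where edgeR called it among 0.0367% of all genes. Tnfaip8, a TNF-induced gene, was at 25.6, 25.8 and 26.5 CPM in Con and at 35.8, 73.3 and 123 CPM in Comb, with a log2 fold change of 1.57 ± 0.35 (edgeR adjusted p = 0.0665), and 1.07 without that tumor. DESeq2 called 9 of this list higher and 1 lower in Comb against Con, where it called 11% and 2.33% of all genes. Among the 9 were Gsdmd, Tnfrsf21 and the near-identical copies Bcl2a1a, Bcl2a1b and Bcl2a1d, whose counts are uncertain because how reads fitting several copies were counted is not given in the sources used here. None of these 5 was called by DESeq2 without Comb replicate 3, where 2 genes of the list, Tnfaip8 and Zbp1, were called higher and 1, Bnip3, lower (3.69% and 1.19% of all genes). Bnip3 stood at −0.68 in PD against Con, −0.62 in Comb against PD and −0.99 in Comb against SFIH, and at −0.84 for the antibody and −0.46 for SFIH pooled. The last 4 were −0.66, −1.04, −0.86 and −0.48 without Comb replicate 3. Tnfaip8 stood at 1.37 in Comb against SFIH and 0.996 for the antibody, and at 0.87 and 0.74 without that tumor. Of the others with the lowest p, Naip2 and Tnip1 in SFIH had log2 fold changes of −0.72 and −0.38, and Cyld in PD had 0.54. Sharpin stood at 0.83 in Comb against PD and 0.68 for SFIH pooled, and at 0.41 and 0.47 without Comb replicate 3. In the interaction Casp1 stood at 0.56 and Bcl2l12 at −0.87, and without that tumor at 0.35 and −1.19.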

How the data were processed

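The authors deposited raw read counts per gene symbol for 12 tumors, made from single-end 75 bp QuantSeq 3′ reads of whole tumor RNA. The aligner, counting tool, genome build and use of strand are not given in the sources used here. All 12 columns were used (0 left out) and matched to tumors by name. Of the 33 members, 13 overlap another annotated gene and 8 a protein-coding one. Repeated symbols (46 lines) were kept as separate entries.

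Counts were analysed in R 4.3.3 with edgeR 4.0.16 (filterByExpr, TMM, quasi-likelihood test, two-sided, 1 fit of all 12 tumors with a coefficient per group). P-values were adjusted by Benjamini and Hochberg over the 13464 genes tested, with a threshold of 0.05. SE was the fold change divided by the square root of F. Alternatives were DESeq2 1.42.0, limma-voom (limma 3.58.1) with sample quality weights, other scalings and filters, a replicate block, fits of 2 groups and leaving out each tumor. DESeq2 and voom without Comb replicate 3 were chosen after seeing the data. Steps were tested on simulated counts with less spread than these data (common dispersion 0.158) and no outlying tumor. That check does not show how the steps perform on these tumors. Ratios of log2(count + 1) were tested over tumors by exact permutation. Tables used Python 3.11.15 and pandas 2.3.3, and figures matplotlib 3.10.9.

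The members, lists, gene pairs and tests were chosen with earlier results of these data known. In each comparison the 5 members with the lowest p are given with fold changes, and of the other cell death genes the 2 with the lowest p. No pair of replicates agreed within counting noise. At these depths, 3 counts correspond to 0.245 to 0.381 CPM, a floor that covers counting error only, and the sources used here mention no molecular identifiers.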

Additional observations from a re-analysis of the deposited data

How the results depend on the processing

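The number of members past the adjusted threshold was 0 in all 8 comparisons with edgeR, and it stayed 0 under upper-quartile scaling, no scaling factors, no filter, a minimum of 50 counts on average and, for the 5 comparisons of 2 groups, in fits of those groups alone. DESeq2 gave 3 members in Comb against Con, 1 against PD, 2 against SFIH and 1 for the antibody, and limma-voom with sample weights gave 5, 1, 5 and 10, and 4 for SFIH pooled. In a fit without Comb replicate 3, DESeq2 gave 3 in Comb against Con, 1 for the antibody and 1 for SFIH pooled, and limma-voom 0 throughout. Leaving out single tumors, edgeR gave 0 to 9 members in Comb against Con, 0 to 3 against PD, 0 to 5 against SFIH and 0 to 5 for the antibody, and every value above 0 came without Comb replicate 1, where 28.5%, 15.2%, 22.5% and 17.1% of all genes also passed and the Comb group kept 2 tumors, one of them Comb replicate 3. The cause was not tested. All 40 named fold changes kept their direction in 782 of 782 alternative values, but they were picked for a low p, which makes a kept direction likely. Their size moved, for Pmaip1 in Comb against Con from 0.353 to 2.37. The replicate block gave 0 members in every comparison. Tumors with the same number did not deviate together (r from −0.288 to 0.409, over 0.1 in 6 of 18 pairs, and the own number best in 6 of 18), so the numbers were not treated as pairs. For the ratios, leaving out single tumors gave differences with SFIH of 0.636 to 0.826 for Bax to Bcl2 (adjusted p past 0.05 without SFIH replicate 2 or Comb replicate 3), 0.284 to 0.383 for Diablo to Xiap (past 0.05 without Con replicate 1 or 2, SFIH replicate 2, PD replicate 1 or 3, or Comb replicate 3), 0.256 to 0.463 for Bax to Bcl2l1 (under 0.05 without SFIH replicate 1 or PD replicate 2) and 0.301 to 0.497 for Casp8 to Cflar (under 0.05 without PD replicate 2). The cause was not tested. The antibody difference for Bax to Bcl2 ran from −0.199 to 0.125 and turned positive without any one of the SFIH tumors (0.00158, 0.0292 and 0.085) or without PD replicate 1 (0.125) or 3 (0.122). Depth limited Bik, Pmaip1 and Bmf, the members with the fewest counts.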
